A study of Arabidopsis thaliana with 63 samples.

Results

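The genes described here encode histone H3 in Arabidopsis thaliana: 5 H3.1 genes (AT5G65360, AT1G09200, AT3G27360, AT5G10400 and AT5G10390), the 3 H3.3 genes HTR4 (AT4G40030), HTR5 (AT4G40040) and HTR8 (AT5G10980), and CENH3 (AT1G01370), the H3 variant of centromeres. They were chosen by their identifiers, and all 9 were found among the 29961 genes and transposable elements that both deposited RNA-seq tables list. RNA was sequenced from 10-day-old seedlings of the Col-0 accession in WT and the mutants h2a.w-1 and h2a.w-2, 3 libraries per genotype. Both mutants are triple mutants of the genes for the histone variant H2A.W, HTA6, HTA7 and HTA12, and share their hta7 (GABI_149G05.01) and hta12 (SAIL_667_D09) T-DNA alleles. The h2a.w-1 line carries the T-DNA allele hta6-1, which the study linked to a rearrangement of the right arm of chromosome 1. From published h2a.w-1 data, the study inferred that part of this arm is duplicated. It attributed the line's growth defects to this added dosage and not to H2A.W loss. The h2a.w-2 line carries hta6-2, a frameshift allele made with CRISPR-Cas9. Each mutant is a single line, and the RNA came from whole seedlings. The comparisons between genotypes ask whether transcript levels of the H3 genes differ in plants with disrupted H2A.W genes. In h2a.w-1, effects of H2A.W loss and of the rearrangement cannot be told apart.

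The deposited tables hold the mean normalized count of each genotype, that is, read counts divided by a size factor per library. These means were solved for the whole reads behind them in each library, and libraries are called A, B and C within a genotype by decreasing size factor, since the tables carry no replicate numbers. Recovered reads totalled between 5820234 and 9406445 per library. The disrupted genes were low in all 3 libraries of h2a.w-1, with normalized counts of 47.9 to 55.7 for HTA6, 79.8 to 93.6 for HTA7 and 16.3 to 21.7 for HTA12, against 769 to 920, 648 to 660 and 80.6 to 105 in WT. The libraries labelled h2a.w-2 held 194 to 280 for HTA6, whose hta6-2 allele is a frameshift and need not remove the transcript, and 74.3 to 99.5 for HTA7. HTA12, however, stood at 25.1, 102 and 24.3 in libraries A, B and C, so that library B was at the WT level and goes against its label for this gene. HTA12 is overlapped by a gene on the opposite strand, and the strand option of the counting is not given in the sources used here. Genotypes of these libraries are therefore given as labelled, and the tests of the H3 genes and the main gene lists are also given without library B. Genes of green tissue (RBCS1A, CAB2) and root (PYK10, EXPA7) were present in every genotype, which fits whole seedlings, and the floral genes AP1, AP3 and AG summed to at most 12.9 normalized counts in any library.

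Histone H3 forms, with H4, the core of the nucleosome. H3.1 is made mainly in S phase and is put onto newly replicated DNA by the chaperone CAF-1, whose subunits are FAS1, FAS2 and MSI1, and it is found above all in heterochromatin, where H2A.W also sits. H3.3 is made throughout the cell cycle and is placed on transcribed genes without replication by the HIRA complex, and CENH3 takes the place of H3 in centromeric nucleosomes, where the kinetochore forms.

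The 8 H3.1 and H3.3 genes each have 411 coding bases. The 5 H3.1 genes encode the same protein, as do the 3 H3.3 genes, and both proteins differ at 4 amino acids, encoded by codons 31, 41, 87 and 90 when the start codon is counted as 0. The copies differ much more in their DNA: between 43 and 81 bases for pairs of H3.1 genes, 46 to 88 for pairs of H3.3 genes, and 81 to 107 between an H3.1 and an H3.3 gene, or 74.0% to 80.3% identity. Coding bases 79 to 129 are shown because they hold codons 31 and 41, which are in capitals and tell H3.1 from H3.3, while the other letters show how the copies can be told apart in reads (RefSeq, TAIR10.1, 5′ to 3′).
AT5G65360, H3.1: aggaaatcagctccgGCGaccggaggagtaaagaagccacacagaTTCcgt
AT1G09200, H3.1: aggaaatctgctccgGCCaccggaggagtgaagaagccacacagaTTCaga
AT3G27360, H3.1: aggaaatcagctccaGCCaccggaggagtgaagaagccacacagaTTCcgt
AT5G10400, H3.1: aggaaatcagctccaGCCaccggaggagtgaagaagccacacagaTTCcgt
AT5G10390, H3.1: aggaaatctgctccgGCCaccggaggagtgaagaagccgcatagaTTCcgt
AT4G40030, H3.3: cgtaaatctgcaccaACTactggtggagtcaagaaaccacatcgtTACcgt
AT4G40040, H3.3: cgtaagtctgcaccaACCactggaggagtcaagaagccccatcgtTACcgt
AT5G10980, H3.3: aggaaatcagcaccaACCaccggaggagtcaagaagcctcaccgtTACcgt
All 5 H3.1 genes keep an alanine codon and a phenylalanine codon at these places and all 3 H3.3 genes a threonine codon and a tyrosine codon. AT3G27360 and AT5G10400 are identical over this stretch. Every run of 75 bases, the length of 1 read, within the exons of the 9 genes occurs once in the genome, so the discarding of reads with several equal positions leaves the copies countable on their own.

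In TAIR10.1 coordinates, the H3.1 genes lie on chromosome 5 (AT5G65360, 26119859 to 26120581; AT5G10400, 3270172 to 3270957; AT5G10390, 3268847 to 3269594), chromosome 1 (AT1G09200, 2971571 to 2972334) and chromosome 3 (AT3G27360, 10129105 to 10129937), and none has an intron in its coding sequence. HTR4 (chromosome 4, 18555532 to 18557106), HTR5 (chromosome 4, 18557149 to 18558945) and HTR8 (chromosome 5, 3472405 to 3473570) have 2, 3 and 2 introns there, and CENH3 (chromosome 1, 143489 to 146479) has 8. CENH3 is on the plus strand and the other genes are on the minus strand. AT5G10400 and AT5G10390 are neighbours separated by 577 bases, and HTR4 and HTR5 by 42 bases, each pair on the same strand. Of the 9 genes, AT3G27360 alone is overlapped by another annotated gene, AT3G27380 on the same strand, over 328 bases. Reads from that stretch cannot be assigned to either gene with certainty. Tested genes within 250 kb of each H3 gene had median log2 fold changes between -0.07 and 0.11 in the 3 comparisons. Medians along chromosome 1 in h2a.w-1 against WT ranged from -0.08 to 0.15 over 31 windows, the highest from 5 genes at 14 to 15 Mb. The study's transposable elements with raised copy number in h2a.w-1 lie between 24 and 27 Mb. The windows there had medians of 0.02, -0.05 and 0.01. The dosage of this region in these libraries was not tested.

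Plant histone genes that are active in S phase are known for an octamer, CGCGGATC, in their promoters, often beside a hexamer, ACGTCA. Both were searched on both strands in the 250 bases before each gene's annotated start and the motifs do not overlap in any window of the 9 genes. The octamer was present in 3 of the 5 H3.1 genes, in 1 of the 3 H3.3 genes and not in CENH3, against 0.135% of the same windows of 27444 protein-coding genes. The hexamer was present in 2 H3.1 genes and 1 H3.3 gene, against 7.69% of windows. A stretch of 60 bases with the octamer nearest the start, in capitals, is shown for the genes that hold it. The letters around it differ between these genes (RefSeq, TAIR10.1, minus strand, 5′ to 3′).
AT5G65360, chr5:26120674-26120733: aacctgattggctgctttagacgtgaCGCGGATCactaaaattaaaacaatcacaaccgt
AT1G09200, chr1:2972335-2972394: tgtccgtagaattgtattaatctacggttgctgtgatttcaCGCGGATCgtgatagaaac
AT5G10400, chr5:3271044-3271103: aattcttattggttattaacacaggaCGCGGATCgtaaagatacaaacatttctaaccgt
HTR5 (AT4G40040), chr4:18558946-18559005: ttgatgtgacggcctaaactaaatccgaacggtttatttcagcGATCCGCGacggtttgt
The octamer reads in the direction of transcription in the 3 H3.1 genes and on the other strand in HTR5, and AT1G09200 holds 2 copies. A match is a description of the letters only. AT5G10390 and AT3G27360 hold no octamer in this window, and AT3G27360 holds the hexamer.

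The H3.3 genes were the most abundant members in WT. Per kilobase of exon, the mean normalized count was 2139 ± 149 (SD, n = 3) for HTR4, 2085 ± 67.8 for HTR5 and 1979 ± 85.7 for HTR8. The ranges of mean ± SD of these 3 overlapped. The H3.1 genes followed with 1394 ± 140 per kilobase for AT5G65360, 1013 ± 153 for AT1G09200, 804 ± 40.4 for AT5G10400, 383 ± 27.8 for AT5G10390 and 366 ± 40.7 for AT3G27360. The last 2 did not differ beyond their spread. The value of AT3G27360 divides by all its exon bases, including 328 overlapped by another gene, so its rank is uncertain in every genotype. CENH3 stood far below at 20.5 ± 2.25 per kilobase, from 33 to 43 reads in each WT library. The same order from AT5G65360 down to CENH3 was seen in both mutants. Within the 3 H3.3 genes, h2a.w-1 had the order of WT, and in the h2a.w-2-labelled libraries HTR5 was first with 2674 ± 519 per kilobase and HTR4 second with 2559 ± 406, a difference smaller than either spread.

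The H3.1 genes were higher in 2 of the 3 h2a.w-1 libraries. AT5G65360, the most abundant H3.1 gene, had normalized counts of 932, 969 and 1123 in the WT libraries A, B and C and of 1426, 1464 and 1064 in those of h2a.w-1, so that libraries A and B of the mutant were above every WT library and library C was within the WT range. AT1G09200 had 709, 703 and 909 in WT and 1069, 1096 and 789 in h2a.w-1, the same pattern. AT5G10400 had 618, 610 and 669 in WT and 956, 972 and 747 in h2a.w-1. AT5G10390, its neighbour, had 281, 247 and 282 in WT and 440, 396 and 338 in h2a.w-1. For these neighbours the genotypes did not overlap, although library C was again the lowest of the mutant. AT3G27360 had 298, 341 and 274 in WT and 384, 349 and 224 in h2a.w-1, which overlap. In RNA of whole seedlings, a different number of dividing cells and a different level per cell cannot be told apart.

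**Figure D1:**
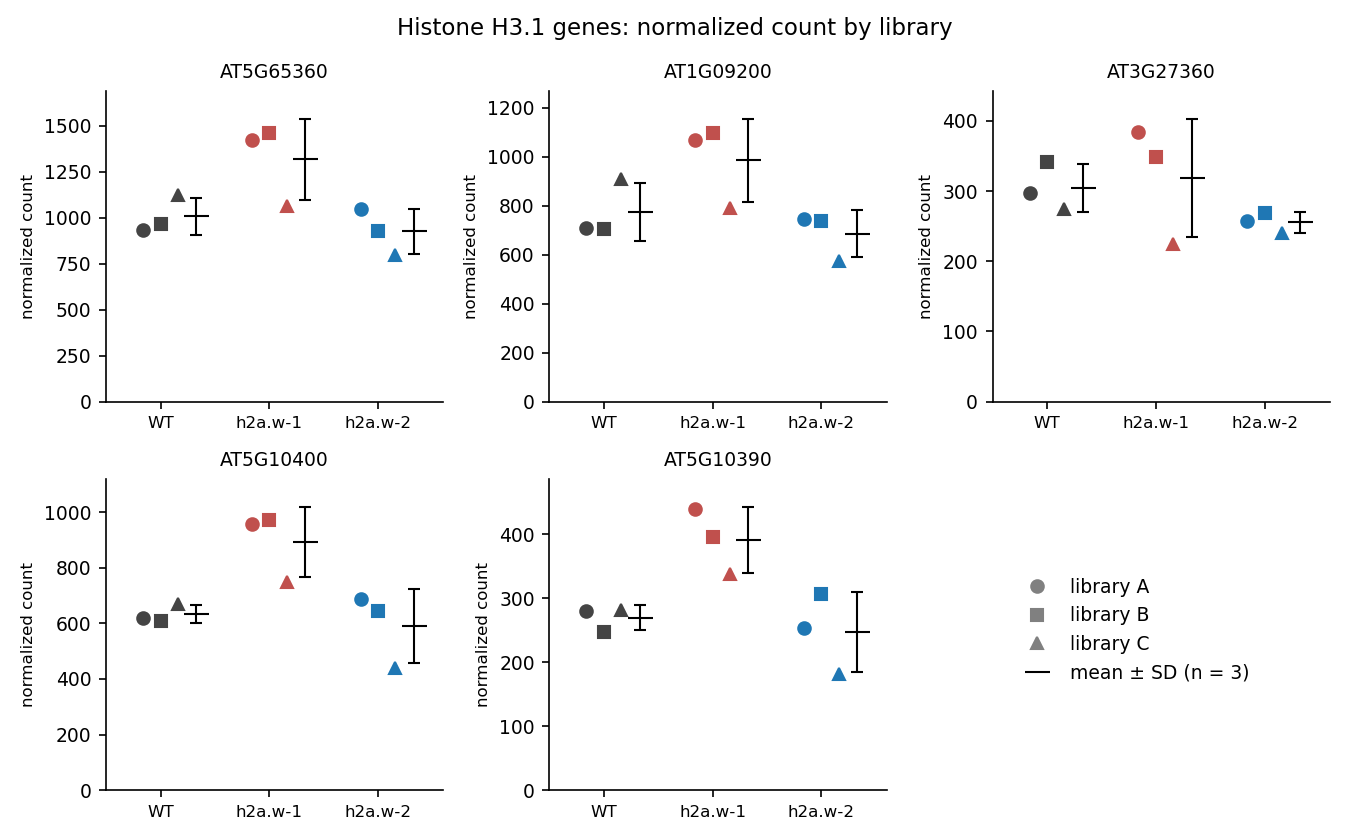
Normalized count (vertical axis, reads divided by the size factor of the library) of each H3.1 gene in the 3 libraries of WT, h2a.w-1 and the h2a.w-2-labelled libraries; symbols mark libraries A, B and C, and bars the mean ± SD (n = 3). Libraries A and B of h2a.w-1 lie above WT in each of the 5 panels, and library C lies lowest within both mutants.

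The test was limma voom on the recovered reads, with Benjamini-Hochberg adjustment over all features whose mean normalized count reached 10, and a feature was called at an adjusted p under 0.05 with an absolute log2 fold change above 1, the thresholds of the study. All 9 members passed the filter in each comparison. In h2a.w-1 against WT, none of them was called with both thresholds, where 4.86% of 19682 tested features were. By the adjusted p alone, 2 members passed, both higher, where 18.3% of features passed in either direction and 10.0% were higher. AT5G10390 rose by 0.54 on the log2 scale (SE 0.12, 95% interval 0.26 to 0.82, 1.45-fold, adjusted p = 0.019) and AT5G10400 by 0.49 (SE 0.12, 95% interval 0.22 to 0.76, 1.40-fold, adjusted p = 0.0246). The log2 fold change was 0.38 for AT5G65360 (SE 0.14, adjusted p = 0.101), 0.34 for AT1G09200 (SE 0.15, adjusted p = 0.161) and 0.04 for AT3G27360 (SE 0.20, adjusted p = 0.896). The median of the 5 H3.1 genes was 0.38, beside a median of -0.01 over all features with quartiles of -0.25 and 0.23. The upper ends of the intervals were below 1 on the log2 scale for all 5 genes.

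These calls depended on single libraries. With all 9 libraries in 1 fit, the adjusted p was 0.0593 for AT5G10390 and 0.0827 for AT5G10400. Without h2a.w-1 library C, 4 of the 5 H3.1 genes passed, with log2 fold changes of 0.64 for AT5G10390 (adjusted p = 0.0106), 0.61 for AT5G10400 (adjusted p = 0.00664), 0.53 for AT5G65360 (adjusted p = 0.0177) and 0.50 for AT1G09200 (adjusted p = 0.0416), and AT3G27360 was at 0.27 (adjusted p = 0.189). Without h2a.w-1 library A, library B or WT library B, none passed: the log2 fold change of AT5G10390 was then 0.45, 0.53 and 0.47 (adjusted p = 0.0746, 0.0596 and 0.0671) and that of AT5G10400 0.43, 0.42 and 0.46 (adjusted p = 0.101, 0.0822 and 0.0761). Without WT library A, AT5G10390 alone passed, and AT5G10400 was at 0.48 (adjusted p = 0.0532). The sign of AT3G27360 turned to -0.02, -0.11 and -0.03 without WT library C, h2a.w-1 library A and h2a.w-1 library B.

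No H3.1 gene differed from WT by the test in the h2a.w-2-labelled libraries. AT5G65360 had normalized counts of 1047, 931 and 800 in libraries A, B and C, and AT1G09200 had 745, 736 and 575. AT5G10400 had 689, 646 and 439, AT5G10390 had 254, 307 and 182, and AT3G27360 had 257, 269 and 240. Libraries A and B were near WT and library C was the lowest for each of the 5 genes. The genotypes overlapped for 4 of them, and AT3G27360 was lower in every library labelled h2a.w-2 than in every WT library. None of the 9 members passed the adjusted p, where 0.0459% of 19629 features did, and none passed both thresholds, where 0.0408% did. At an unadjusted p under 0.05 there was 1 member, HTR5, and 2284 features. With DESeq2 at the same thresholds, the study called more protein-coding genes in h2a.w-2 than the 8 features called here. The disrupted gene HTA12 did not pass here either (-1.14, adjusted p = 0.42), with library B at the WT level. The absence of calls is therefore weak evidence of equal levels. The log2 fold changes of the H3.1 genes ranged from -0.25 to -0.12 with a median of -0.13, beside 0.003 over all features. The 95% intervals reached from -0.53 to 0.02 for AT3G27360 and from -0.55 to 0.29 for AT5G10390, so a change of 2-fold was outside them but a smaller one in either direction was not. Without library C of these, the log2 fold changes were 0.05 for AT5G10390, 0.08 for AT5G10400, -0.03 for AT5G65360, -0.05 for AT1G09200 and -0.21 for AT3G27360. Without library B, whose HTA12 level goes against its label, they ranged from -0.29 for AT5G10390 to -0.14 for AT5G65360.

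Set against each other, the mutants did not overlap in the level of 4 H3.1 genes, lower in the h2a.w-2-labelled libraries. Over all tested features, 18.8% of 19570 were lower without overlap, and no H3.1 gene passed the test. This comparison shares its libraries with the other comparisons. For AT5G65360, AT1G09200, AT5G10400 and AT5G10390, the highest library labelled h2a.w-2 was below the lowest of h2a.w-1. The log2 fold change was -0.66 for AT5G10390 (SE 0.19, 0.633-fold, 95% interval 0.465 to 0.861, adjusted p = 0.0558), -0.60 for AT5G10400 (SE 0.19, adjusted p = 0.0717), -0.51 for AT1G09200 (SE 0.17, adjusted p = 0.0761), -0.50 for AT5G65360 (SE 0.16, adjusted p = 0.0746) and -0.29 for AT3G27360 (SE 0.20, adjusted p = 0.385). No member passed the adjusted p, where 14.8% of 19570 features did and 5.74% passed both thresholds; at an unadjusted p under 0.05 there were 4 members and 5964 features. Without h2a.w-1 library C, AT5G65360 (-0.65, adjusted p = 0.036), AT1G09200 (-0.67, adjusted p = 0.0367) and AT3G27360 (-0.52, adjusted p = 0.0421) passed. Without library B labelled h2a.w-2, AT5G10390 passed at -0.83 (adjusted p = 0.0355), and AT5G65360, AT1G09200 and AT5G10400 were at -0.51, -0.57 and -0.68 (adjusted p = 0.134, 0.102 and 0.0895). With all 9 libraries in 1 fit, AT5G10390, AT5G10400 and AT5G65360 passed at -0.66, -0.60 and -0.50 (adjusted p = 0.0256, 0.0345 and 0.0432), and with weights for sample quality AT1G09200 passed as well.

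**Figure D2:**
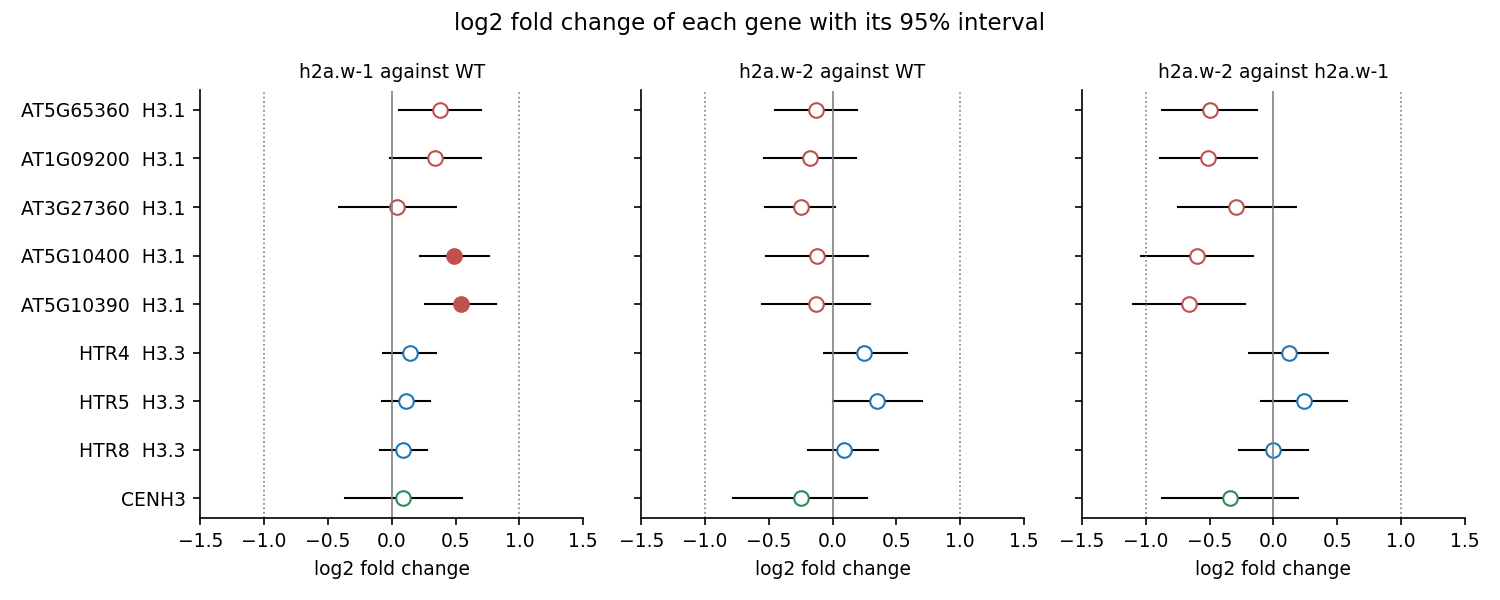
log2 fold change (horizontal axis) of each of the 9 genes in the 3 comparisons, from limma voom; points are estimates, bars 95% intervals, filled points have an adjusted p under 0.05, and dotted lines mark a log2 fold change of 1 in either direction. AT5G10400 and AT5G10390 are the filled points, both in h2a.w-1 against WT, and the H3.3 points lie between 0.0006 and 0.35 in all 3 panels.

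The H3.3 genes varied little between WT and h2a.w-1. HTR5 had normalized counts of 3206, 3210 and 3031 in the WT libraries and 3336, 3327 and 3511 in h2a.w-1, all 3 above WT but by a log2 fold change of only 0.11 (SE 0.08, adjusted p = 0.388). HTR4 had 3016, 2624 and 2856 in WT and 2994, 3171 and 3179 in h2a.w-1, which overlap, at 0.14 (SE 0.09, adjusted p = 0.312). HTR8 had 1557, 1605 and 1695 in WT and 1718, 1780 and 1674 in h2a.w-1, at 0.09 (SE 0.08, adjusted p = 0.457). None of the 3 upper ends of the 95% intervals exceeded 0.35, which is 1.27-fold.

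Library C stood above the other h2a.w-2-labelled libraries for all 3 H3.3 genes. HTR5 had 3553, 3618 and 4941 normalized counts in libraries A, B and C, each above every WT library, and its log2 fold change was 0.35 (SE 0.15, adjusted p = 0.429). HTR4 had 3013, 3148 and 4003, at 0.25 (SE 0.14, adjusted p = 0.477), and HTR8 had 1586, 1639 and 1947, at 0.09 (SE 0.12, adjusted p = 0.755). Without library C the values were 0.19 for HTR5, 0.12 for HTR4 and -0.01 for HTR8, and without library B they were 0.43, 0.31 and 0.13, none passing. Against h2a.w-1, the log2 fold changes were 0.24 for HTR5 (SE 0.15, adjusted p = 0.318), 0.12 for HTR4 (SE 0.13, adjusted p = 0.616) and 0.0006 for HTR8 (SE 0.12, adjusted p = 0.998), or 0.31, 0.17 and 0.03 without library B.

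CENH3 was measured from few reads. It had 39, 43 and 33 reads in WT, 40, 46 and 33 in h2a.w-1 and 34, 36 and 17 in the h2a.w-2-labelled libraries, or normalized counts of 32.4, 36.7 and 40.4, of 34.3, 43.7 and 37.7, and of 30.5, 34.3 and 24.3. The genotypes overlapped against WT, and every library labelled h2a.w-2 was below every h2a.w-1 library, although the nearest of both rounded to 34.3. The log2 fold change was 0.09 (SE 0.20, 95% interval -0.37 to 0.55, adjusted p = 0.785) in h2a.w-1 against WT, -0.25 (SE 0.23, 95% interval -0.78 to 0.27, adjusted p = 0.629) for the h2a.w-2-labelled libraries against WT and -0.34 (SE 0.23, adjusted p = 0.366) against h2a.w-1. Without library B labelled h2a.w-2, the last 2 values were -0.35 and -0.45, and without library C they were -0.15 and -0.24. These intervals leave room for a change of up to 1.47-fold upward in h2a.w-1 and down to 0.583-fold in the h2a.w-2-labelled libraries, so smaller differences were not detectable at this depth.

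**Figure D3:**
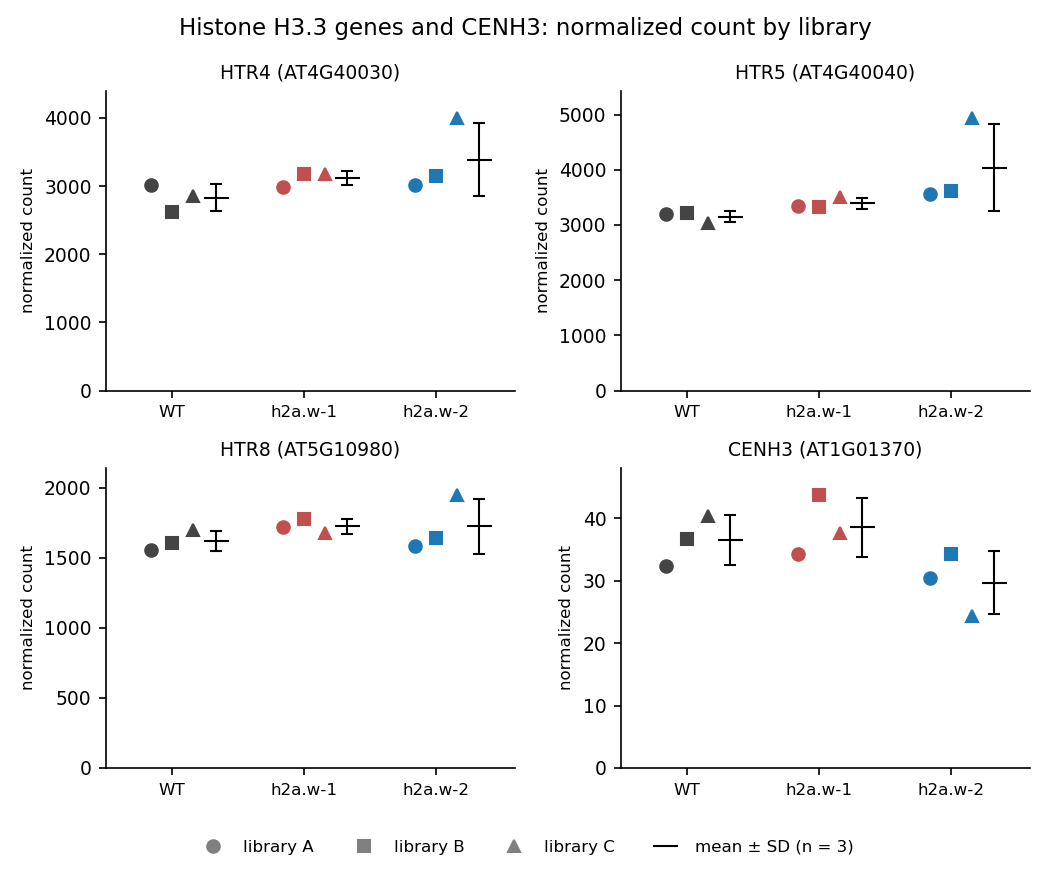
Normalized count (vertical axis) of HTR4, HTR5, HTR8 and CENH3 in each library of WT, h2a.w-1 and the h2a.w-2-labelled libraries; symbols mark libraries A, B and C, and bars the mean ± SD (n = 3). Library C labelled h2a.w-2 is the highest for the 3 H3.3 genes, with 4003, 4941 and 1947, and the lowest for CENH3, with 24.3.

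Complete separation of the libraries of 2 genotypes was frequent among all features, and its count among the members is read against that. In h2a.w-1 against WT, 3 of 9 members did not overlap, all 3 higher, where 38.7% of features did not overlap and 20.3% were higher. In the h2a.w-2-labelled libraries against WT, 2 of 9 members did not overlap, where 20.5% of features did not. Between both mutants, 6 of 9 did not overlap, 5 of them lower and HTR5 higher, where 37.6% of features did not overlap and 18.8% were lower in the h2a.w-2-labelled libraries. The members were measured in the same libraries and are not independent of each other.

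Summed over genes, the balance of H3.1 and H3.3 transcripts differed between libraries of the same mutant as well as between genotypes. The 5 H3.1 genes summed to 2839, 2871 and 3256 normalized counts in WT, 4275, 4277 and 3161 in h2a.w-1 and 2992, 2888 and 2235 in the h2a.w-2-labelled libraries. The 3 H3.3 genes summed to 7779, 7439 and 7582 in WT, 8047, 8278 and 8364 in h2a.w-1, and 8151, 8405 and 10891 in the h2a.w-2-labelled libraries. The ratio of H3.1 to H3.3 counts, which does not depend on the size factors, was 0.365, 0.386 and 0.429 in WT. It was 0.531, 0.517 and 0.378 in h2a.w-1 and 0.367, 0.344 and 0.205 in the h2a.w-2-labelled libraries, so library C had the lowest ratio of both mutants and the highest of WT. Library C is the one with the smallest size factor in each genotype. In the study's read totals after duplicate removal, the same replicate number was the shallowest in WT and in h2a.w-2. Libraries C of these genotypes therefore probably share that number. No totals were listed for h2a.w-1, and a shared batch was not tested. Leaving out library B labelled h2a.w-2, the mean H3.1 sum of these libraries was 0.875 of the WT mean and the mean H3.3 sum 1.25 of it, against 0.905 and 1.2 with it. Per kilobase of exon, the mean ratio was 0.638 ± 0.0495 (SD, n = 3) for WT, 0.774 ± 0.134 for h2a.w-1 and 0.504 ± 0.142 for the h2a.w-2-labelled libraries. No test was made on these sums.

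Each copy's share of the reads of its class was also computed. AT5G65360 held 33.7% ± 0.827 of the H3.1 reads in WT (SD, n = 3), 33.7% ± 0.435 in h2a.w-1 and 34.4% ± 1.87 in the h2a.w-2-labelled libraries, and AT1G09200 held 25.8%, 25.2% and 25.4%. AT5G10400 held 21.2%, 22.9% and 21.7%, and AT5G10390 held 9.05%, 10.1% and 9.07%. AT3G27360, the copy overlapped by another gene, ranged most for its size, from 7.08% to 11.9% over the 9 libraries. Among the H3.3 reads, the share of HTR5 was 41.4% ± 1.60 for WT, 41.2% ± 0.918 for h2a.w-1 and 44.0% ± 1.22 for the h2a.w-2-labelled libraries, while that of HTR8 was 21.3% ± 1.19, 21.0% ± 0.822 and 18.9% ± 0.926. Across the 9 libraries, log2 levels of pairs of H3.1 genes had a median Pearson correlation of 0.88 (range 0.55 to 0.98, 10 pairs), pairs of H3.3 genes 0.78 (0.70 to 0.91, 3 pairs), and pairs of an H3.1 and an H3.3 gene -0.38 (-0.61 to 0.02, 15 pairs). These are descriptions over libraries that include 3 genotypes and unequal depth.

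**Figure D4:**
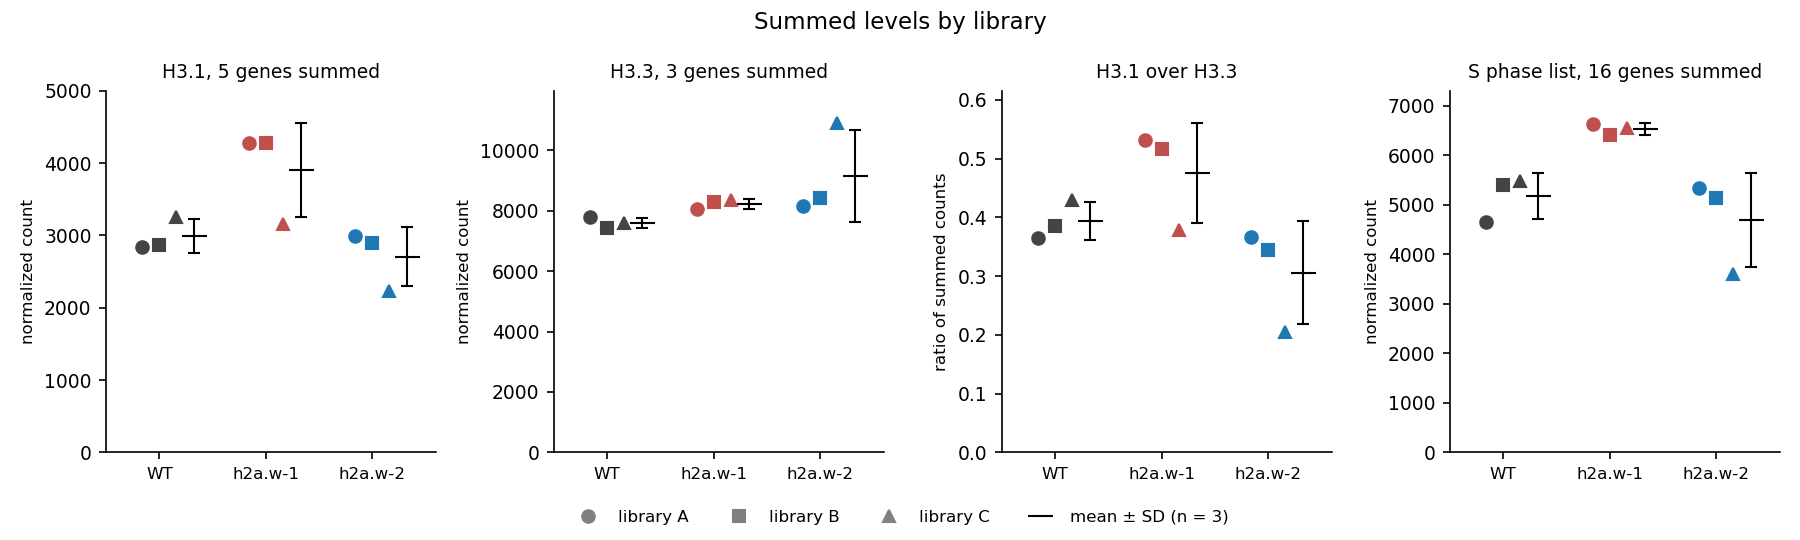
Summed normalized counts of the 5 H3.1 genes, the 3 H3.3 genes and 16 S-phase genes, and the ratio of summed H3.1 to H3.3 counts (vertical axes), in each library of WT, h2a.w-1 and the h2a.w-2-labelled libraries; symbols mark libraries A, B and C, and bars the mean ± SD (n = 3). The ratio is lowest, at 0.205, in library C labelled h2a.w-2, where the S-phase sum is also lowest at 3598.

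H4, the partner of H3 in the nucleosome, is encoded by 8 listed genes. All 8 had positive log2 fold changes in h2a.w-1 against WT with a median of 0.29, beside -0.01 over all features, and 1 passed the adjusted p upward, where 10.0% of all features did: HIS4 (AT2G28740) rose by 0.78 (SE 0.21, adjusted p = 0.0371), from normalized counts of 32.4, 42.7 and 28.2 to 66.0, 58.0 and 53.7. Among the other H4 genes, AT3G46320 was at 0.45 (adjusted p = 0.216) and AT5G59970 at 0.05 (adjusted p = 0.815). In the h2a.w-2-labelled libraries against WT, 3 were above and 5 below 0, with a median of -0.06, from -0.39 for AT3G46320 to 0.33 for HIS4, and none passed; without library B the median was -0.01. Summed H4 counts were 2098, 2117 and 2006 in WT, 2704, 2602 and 2000 in h2a.w-1 and 2031, 1998 and 1924 in the h2a.w-2-labelled libraries. Library C of h2a.w-1 was thus near the WT level for H4 as for H3.1. Without it, 3 H4 genes passed with a median of 0.43, and none passed when WT library A or C or h2a.w-1 library A or B was left out.

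Genes of DNA replication tended to be higher in h2a.w-1 than in WT. Of 16 S-phase genes, 16 had a positive log2 fold change, 7 passed the adjusted p upward, where 10.0% of all features did, and none downward, with a median of 0.32 beside -0.01 over all features. MCM2, a subunit of the replicative helicase, rose by 0.55 (adjusted p = 0.00648), CDT1A, which licenses origins, by 0.50 (adjusted p = 0.026) and RNR1, the large subunit of ribonucleotide reductase, by 0.40 (adjusted p = 0.0167). The DNA polymerase alpha gene ICU2 was at 0.51 (adjusted p = 0.0501), the origin-recognition gene ORC1B at 0.13 (adjusted p = 0.483) and CDC6 at 0.09 (adjusted p = 0.768). None of the 16 was called with the fold change threshold in any comparison. In the h2a.w-2-labelled libraries against WT, none passed, 5 were above and 11 below 0, and the median was -0.21, from -0.44 for CDC6 to 0.08 for POL2A. Between both mutants, 4 of 16 passed, all lower in the h2a.w-2-labelled libraries, where 7.04% of all features passed in that direction: MCM2 (-0.53, adjusted p = 0.0399), MCM6 (-0.63, adjusted p = 0.0387), MCM7 (-0.66, adjusted p = 0.0319) and ICU2 (-0.59, adjusted p = 0.0372). The S-phase sum was 6633, 6410 and 6552 in h2a.w-1 against 4646, 5403 and 5488 in WT, so that library C of h2a.w-1 was as high as the others for these genes but not for H3.1. It was 5341, 5138 and 3598 in the h2a.w-2-labelled libraries, and here library C was low for both. The count of 7 was 1 without h2a.w-1 library A, 2 without library B, 3 without WT library A and 5 without any of the other 3 libraries, while the median stayed between 0.25 and 0.36. Between both mutants, the count of 4 was 0 without any one of the h2a.w-1 libraries, 2 and 3 without libraries A and B labelled h2a.w-2, and 6 without library C, where the median went from -0.49 to -0.33. The median against WT was 0.01 without library C labelled h2a.w-2 and -0.27 without library B.

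Among genes of G2 and mitosis in h2a.w-1 against WT, 9 of 13 were above 0 and none passed, with a median of 0.11. AUR2, a mitotic kinase, was at 0.37 (adjusted p = 0.109) and CDKB2;2, a cyclin-dependent kinase, at -0.39 (adjusted p = 0.156). In the h2a.w-2-labelled libraries against WT, all 13 were below 0 with a median of -0.41 and none passed. The B-type cyclins CYCB2;1 and CYCB2;2 were lowest at -0.84 (adjusted p = 0.438) and -0.57 (adjusted p = 0.426), and CDKB2;2 was at -0.09 (adjusted p = 0.873). Their sum was 1947, 1751 and 1098 in libraries A, B and C, against 1976 to 2137 in WT, which again sets library C apart, and the median was -0.14 without it and -0.48 without library B. Between both mutants 12 of 13 had negative values and 1, CYCB1;2, passed the adjusted p (-0.56, adjusted p = 0.0369); none passed without h2a.w-1 library A or B or library B labelled h2a.w-2, and 2 passed without library A labelled h2a.w-2.

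**Figure D5:**
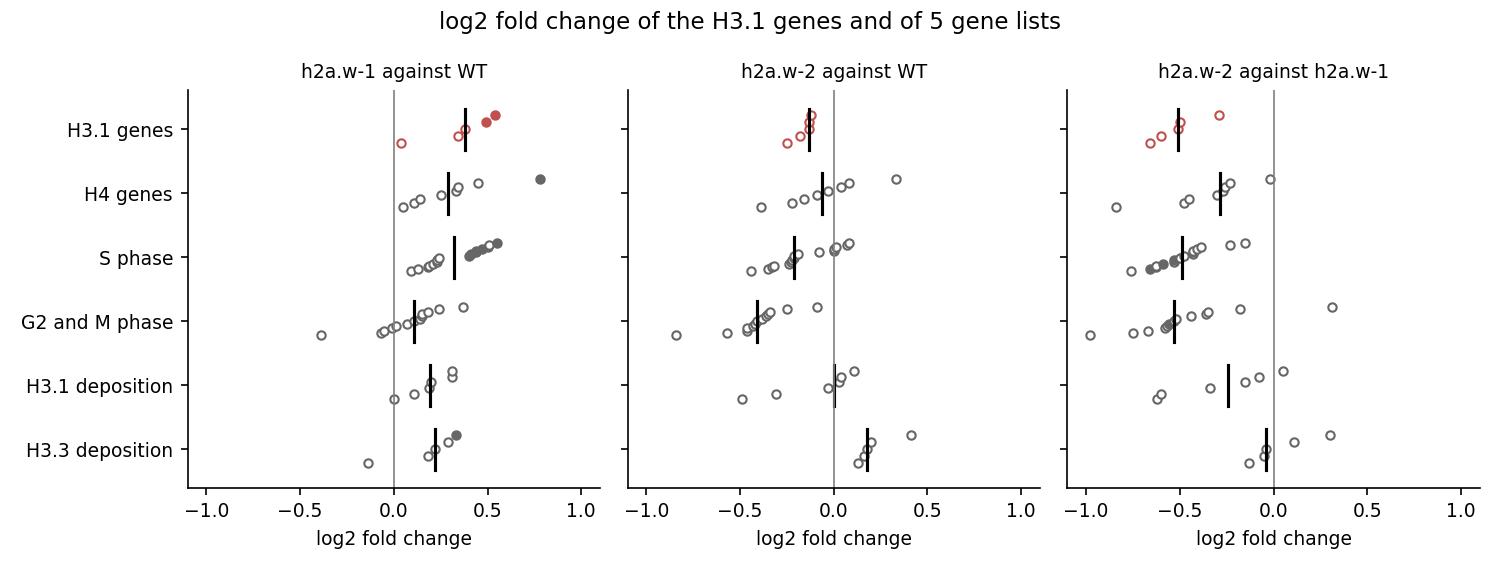
log2 fold change (horizontal axis) of the 5 H3.1 genes and of the genes of 5 lists in the 3 comparisons, from limma voom; each point is a gene, filled where the adjusted p is under 0.05, and black bars are medians. In h2a.w-1 against WT all 16 S-phase and all 8 H4 genes lie above 0, and in h2a.w-2 against WT, for the libraries so labelled, all 13 genes of G2 and M phase lie below 0 with none passing.

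Genes that place or modify H3 passed the test once. Of 6 genes for H3.1, namely the CAF-1 subunits FAS1, FAS2 and MSI1, the H3.1-specific K27 methyltransferases ATXR5 and ATXR6, and TSK, which binds H3.1 of new chromatin, none passed in any comparison. In h2a.w-1 against WT they ranged from 0.001 for ATXR5 to 0.31 for FAS1 and TSK, with a median of 0.19, and in the h2a.w-2-labelled libraries from -0.49 for ATXR6 and -0.31 for FAS1 to 0.11 for FAS2, with a median of 0.0001. Between both mutants FAS1 was at -0.62 (adjusted p = 0.129) and ATXR6 at -0.60 (adjusted p = 0.339). Of 5 genes for H3.3 deposition, CABIN1, a subunit of the HIRA complex, rose in h2a.w-1 by 0.33 (adjusted p = 0.0318), from normalized counts of 541 to 554 in WT to 655 to 750, but not when any 1 library was left out. ATRX was at 0.29 (adjusted p = 0.439), UBN2 at 0.18 (adjusted p = 0.57) and UBN1 at -0.14 (adjusted p = 0.368), and the median was 0.22. All 5 were above 0 in the h2a.w-2-labelled libraries, from 0.13 for UBN2 to 0.41 for ATRX, with none passing, also without library B. The chaperones ASF1A, ASF1B and AT4G37210 lay between -0.0005 and 0.08 in h2a.w-1 and between -0.17 and 0.04 in the h2a.w-2-labelled libraries. KNL2, which brings CENH3 to centromeres, and CENP-C, which binds it there, were at 0.15 and 0.22 in h2a.w-1 and at -0.09 and -0.17 in the h2a.w-2-labelled libraries, with none passing. Of 6 further H3 genes, 1 was not analysed here, MGH3 of male gametes was at 0 in all 9 libraries, and HTR11 was the only one above the filter, at -0.22 in h2a.w-1 (adjusted p = 0.66) and 0.14 in the h2a.w-2-labelled libraries (adjusted p = 0.853).

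Among the tissue markers, CAB2 of green tissue passed the test in h2a.w-1 against WT, higher (0.86, adjusted p = 0.0217). Between both mutants, CAB2 was lower (-1.39, adjusted p = 0.00337) and STM of the shoot meristem higher (1.30, adjusted p = 0.00369) in the h2a.w-2-labelled libraries. The root genes EXPA7 and SHV2 and the seed storage gene CRA1 did not pass in any comparison that tested them, and no marker passed in the h2a.w-2-labelled libraries against WT. The shoot meristem list, STM and CLV3, summed to 46.6 to 60.5 normalized counts in h2a.w-1, 64.9 to 106 in WT and 121 to 134 in the h2a.w-2-labelled libraries, nearly all of it STM. The green tissue gene CAB2 was at 5464 to 7620 in h2a.w-1, 3035 to 4888 in WT and 2329 to 2958 in the h2a.w-2-labelled libraries. EXPA7 and SHV2 summed to 72.0 to 178 in h2a.w-1, 156 to 463 in WT and 75.2 to 217 in the h2a.w-2-labelled libraries. The seed storage list held 16.3, 177 and 274 in h2a.w-1, nearly all from CRA1, and at most 7.15 in the other libraries. The part of these marker levels in the H3 values was not tested.

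The 5 features whose pattern over the 9 libraries was most like the mean H3.1 profile, among 15976 features whose mean normalized count reached 50, had Pearson correlations of 0.969 to 0.975. They were AK-HSDH I (AT1G31230) and AK3 (AT3G02020), enzymes of aspartate-derived amino acid synthesis, SAL1 (AT5G63980), a phosphatase, BGLU42 (AT5G36890), a beta-glucosidase, and IPMI1 (AT3G58990), a subunit of isopropylmalate isomerase. AK3 had 1471, 1383 and 881 normalized counts in h2a.w-1, 613, 607 and 715 in WT and 515, 557 and 256 in the h2a.w-2-labelled libraries, with library C lowest in both mutants as for H3.1. For CENH3, whose few reads leave its own pattern uncertain, the nearest were AT5G40530, AT5G02740, LPLAT2 (AT1G63050), AT4G20325 and EMB2656 (AT5G37630), at 0.946 to 0.972. These correlations rest on 9 libraries of 3 genotypes and were picked as the highest of many.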

How the data were processed

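Per the labels and methods, total RNA of 10-day-old seedlings was depleted of rRNA, made into directional libraries and sequenced as paired 75-base reads. The authors trimmed reads (Trim Galore), aligned them to TAIR10 (STAR), discarded reads with several equal positions, removed probable PCR duplicates (MarkDuplicates), counted on Araport11 with htseq-count and compared genotypes with DESeq2. The deposited signal is the mean normalized count per genotype in each of 2 tables. Removal of duplicates by position can hold down counts of short, abundant genes such as H3.1, which was not tested. In the study's read totals for WT and h2a.w-2, the shallowest h2a.w-2 replicate lost the largest share of reads at this step. By its depth this replicate is probably library C labelled h2a.w-2. The deposited fold change, statistic and p-value columns were not used. The strand option is not given in the sources used here.

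Whole reads of each library were solved from the means (99.7% of 29961 features had exactly 1 solution; 79 had none or several, or a mean above 12000), and the solver was tested on simulated data. limma 3.58.1 (R 4.3.3) voom used the size factors of each table, or median ratios between mutants; levels set side by side over 3 genotypes use median ratios over 9 libraries. Features whose mean normalized count reached 10 were tested, with two-sided p-values adjusted by Benjamini-Hochberg. Motifs, read uniqueness (75 bases) and coordinates come from RefSeq's TAIR10.1. Libraries of a genotype differed beyond counting error (chi-square per degree of freedom 3.35 to 17.5). All 9 were kept as separate libraries. The p-values set the difference between genotypes against the spread between libraries of a genotype. Named genes were the 9 members, HTA6, HTA7 and HTA12, each list's called genes and the 2 at each end of its log2 fold changes, and the 5 features most alike; CAB2, CYCB1;2, MCM6, CDT1A and RNR1 were named after their values were seen, and so were the counts of each list with a library left out. The members and lists were chosen with earlier results of these data known. Alternatives were other size factors, filters, pseudocounts, weights and fits, and each library left out. Only the RNA-seq samples of the series were used.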

Additional observations from a re-analysis of the deposited data

Results flagged for a closer look

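The following are some of the genes that differed between the libraries labelled h2a.w-2 and those of h2a.w-1 by a direct test (limma voom, Benjamini-Hochberg adjustment). In this test 14.8% of 19570 features passed the adjusted p. MCM2, a helicase subunit, had a log2 fold change of -0.53 (adjusted p = 0.0399). MCM7, another subunit, was at -0.66 (adjusted p = 0.0319). ICU2, of DNA polymerase alpha, was at -0.59 (adjusted p = 0.0372). None of MCM2, MCM7 and ICU2 passed when any 1 of the h2a.w-1 libraries was left out. HTA6, which carries a T-DNA in h2a.w-1 and a frameshift in h2a.w-2, was at 2.24 (adjusted p = 0.00172), with 194 to 280 normalized counts against 47.9 to 55.7.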

How the results depend on the processing

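No paired analysis was possible because the columns carry no replicate numbers. Of the log2 fold changes of the 9 members and the 3 H2A.W genes, 227 of those under other settings and 186 of those with a library left out kept their direction and their side of the threshold. Under other settings, a further 10 changed sign, 9 came to pass and 2 no longer passed. With a library left out, a further 13 changed sign, 6 came to pass and 11 no longer passed. Features called went from 957 to 3600 in h2a.w-1 against WT and from 1124 to 2887 between both mutants with no fold change threshold, when members called went from 0 to 2 in the former. In the h2a.w-2-labelled libraries against WT, 8 features called became 33 with no filter on low counts, 38 with all 9 libraries in 1 fit and 25 with sample quality weights. Members with an adjusted p under 0.05 went from 2 to 0 with all 9 libraries in 1 fit and to 4 with sample quality weights in h2a.w-1 against WT, and from 0 to 3 and 4 between both mutants. With 1 library left out, members passing ranged from 0 to 4 in h2a.w-1 against WT and from 0 to 3 between both mutants, and features called from 3 to 10 in the h2a.w-2-labelled libraries against WT and 562 to 1143 between both mutants.

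Changes of sign were all in values that did not pass. With sample quality weights, AT5G10390 was at 0.01 in the h2a.w-2-labelled libraries against WT. Between both mutants, HTR8 was at -0.03 with total reads in place of size factors, -0.003 with no filter, -0.004 with limma trend at either pseudocount, -0.002 with all 9 libraries and -0.06 with quality weights, and HTA7 at -0.03 with total reads and -0.02 with limma trend at either pseudocount. With a library left out, AT3G27360 ranged from -0.11 to 0.27 and CENH3 from -0.01 to 0.19 in h2a.w-1 against WT. In the h2a.w-2-labelled libraries against WT, AT5G10400 ranged from -0.25 to 0.08, AT5G10390 from -0.29 to 0.05 and HTR8 from -0.01 to 0.14. Between both mutants, HTR4 ranged from -0.01 to 0.19, HTR8 from -0.09 to 0.06 and HTA7 from -0.14 to 0.11. The causes of these shifts were not tested. CENH3 gave no value with the filter at 50, and its depth of 17 to 46 reads per library limits what could be detected.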
